A study of Mus musculus with 6 samples.

Results

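The genes described here encode the parts of the lysosome in mouse Th17 cells with and without Stim1: soluble enzymes, membrane proteins, the subunits of the vacuolar proton pump (V-ATPase), and 3 transcription factors of lysosomal genes. They were taken by name, as every row whose symbol starts with Atp6v plus 28 listed symbols. The list was drawn up with earlier results of these data known. This gave 51 genes, of which 42 had a mean of at least 10 normalised counts over the 6 libraries and could be tested. They are 42 of the 11947 genes tested and of the 23393 rows with a gene name. Both groups were pathogenic Th17 cells from C57BL/6 mice, 3 libraries each. Naive CD4 T cells had been activated for 2 days on plates coated with anti-CD3 and anti-CD28, with the cytokines IL-23, IL-6 and IL-1b in the medium. The cells called Stat3C came from mice of the genotype Stat3CSTOPfl/fl CD4-Cre, and the cells called Stim1KO Stat3C from mice of the genotype Stim1fl/fl Stat3CSTOPfl/fl CD4-Cre. Both groups thus carried Stat3C, a constitutively active form of STAT3 that is expressed once Cre has removed a stop cassette. The comparison therefore concerns Stim1 deletion on that background, and cells with normal Stat3 are not part of it. The Cre is driven by Cd4 regulatory sequence, which acts in developing T cells and so also in the CD8 lineage. The labels give no age, sex or pooling of the mice, nor do they say whether libraries of a group came from separate animals, so p-values measure the spread between these libraries.

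Lysosomes break down protein, glycans and lipids with acid hydrolases that work at the low pH set by the V-ATPase, whose cytosolic V1 sector splits ATP and whose membrane V0 sector carries protons. TFEB, TFE3 and MITF are related factors that bind the motif CACGTG or its variants near many lysosomal genes. TFEB enters the nucleus after calcineurin, a phosphatase switched on by calcium, or other phosphatases have removed phosphates placed by mTORC1 at the lysosome. STIM1 is the sensor in the endoplasmic reticulum that opens the store-operated calcium channels of T cells when its store is emptied.

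Stim1 stood at 1999, 1969 and 1931 normalised counts in the 3 Stat3C libraries and at 811, 794 and 687 in the Stim1KO Stat3C libraries, a log2 difference of -1.37 (SE 0.08, limma adjusted p = 0.000287), with RNA still counted from the locus. Here and below, log2 differences are Stim1KO Stat3C minus Stat3C on the scale log2(normalised count + 1), values are listed in the order of replicates 1, 2 and 3, and a gene is said to have risen or fallen where limma's adjusted p over all 11947 genes was under 0.05. Counts at an unadjusted p under 0.05 come without the share of all genes at that cutoff, so they show no excess over the background. The libraries held 16009755 to 51347367 reads, so that 3 reads, the limit a value of 0 allows, correspond to 1.30 to 4.11 normalised counts. The T cell genes Cd3e, Cd4, Il17a and Il17f were present in every library. Sums over marker genes of other cells differed between libraries. Those of 11 B cell genes were 465, 268 and 644 in Stat3C against 105, 69.8 and 96.5, with 5 of 8 tested genes lower, and those of 8 NK and CD8 genes were 484, 399 and 517 against 346, 184 and 365, with 2 of 4 lower. The sums of 17 macrophage and dendritic cell genes were 97.4, 274 and 66.9 against 37.0, 54.8 and 63.7, with 1 of 4 lower and Clec9a and Siglech at 0 throughout. Those of 9 granulocyte, basophil and mast cell genes were 71.9, 2173 and 38.8 against 136, 526 and 148, with 0 of 5 past the threshold and Retnlg at 0. Stat3C replicate 2 thus stood apart, and results are given with and without it where it matters. In bulk RNA, fewer cells of a type and less RNA per cell cannot be told apart.

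Of the 42 lysosomal genes, 10 were higher in Stim1KO Stat3C cells (Cd68, Ctsb, Ctsd, Ctsa, Ctss, Atp6v1h, Psap, Ppt1, Atp6v1d and Lamp1), 1 was lower (Gusb), and 31 did not pass the test. Over all genes tested, 8.62% were called higher and 4.96% lower, 13.6% in either direction. The median log2 difference of the 42 was 0.12, against -0.00 for all genes tested, and 29 of the 42 (69.0%) had a positive difference, against 49.8% of all genes. The 2 groups of libraries did not overlap for 20 of the 42 genes (47.6%), 16 of them higher and 4 lower. That background was 35.6% of all genes tested, 19.2% higher and 16.4% lower. Summed, the 42 genes made up 0.268%, 0.297% and 0.269% of all normalised counts of the Stat3C libraries, against 0.332%, 0.308% and 0.318% without Stim1, with no overlap. The sum of the peptidase, glycosidase and lipid breakdown genes, Psap included, lay above every Stat3C library (33086, 36368 and 33462 against 44000, 39641 and 41986). It was not tested, and it weights genes by their counts. The mean of Ctsb went from 4511 to 7225, that of Ctsd from 4227 to 6327 and that of Psap from 4850 to 6234. The mean of Gusb went down, from 3077 to 2479, and most of the summed genes did not pass. The sum of the Atp6v genes did not separate the groups, at 19153, 20071 and 19785 against 19996, 20333 and 20537. The number of genes called depended on single libraries. Leaving out replicate 2 of Stat3C gave 15 higher, beside 14.3% of all genes. Leaving out its replicate 1 gave 3, beside 3.99%, and its replicate 3 gave 6, beside 4.16%. Leaving out replicate 1, 2 or 3 of the cells without Stim1 gave 5, 6 and 6, beside 4.08%, 4.7% and 6.6%. Cd68, Ctsb and Ctsa passed in all 6 of these fits. The highest adjusted p reached by the others was 0.0519 for Psap (without Stat3C replicate 1) and 0.0519 for Gusb (lost without Stat3C replicate 1 or 3). It was 0.0642 for Ctss and 0.0669 for Atp6v1h, which also lost their calls without Stat3C replicate 1 or 3, and without replicate 1 and 2 of the other group, respectively. Atp6v1d (0.112), Ppt1 (0.093), Ctsd (0.133) and Lamp1 (0.168) lost theirs in 4, 4, 4 and 5 of the 6 fits, and none of the 11 did so without Stat3C replicate 2. On the recovered reads edgeR called 8 genes higher and 1 lower, beside 7.91% and 4.7% of all genes, and DESeq2 10 and 1, beside 10.6% and 8.51%.

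**Figure D1:**
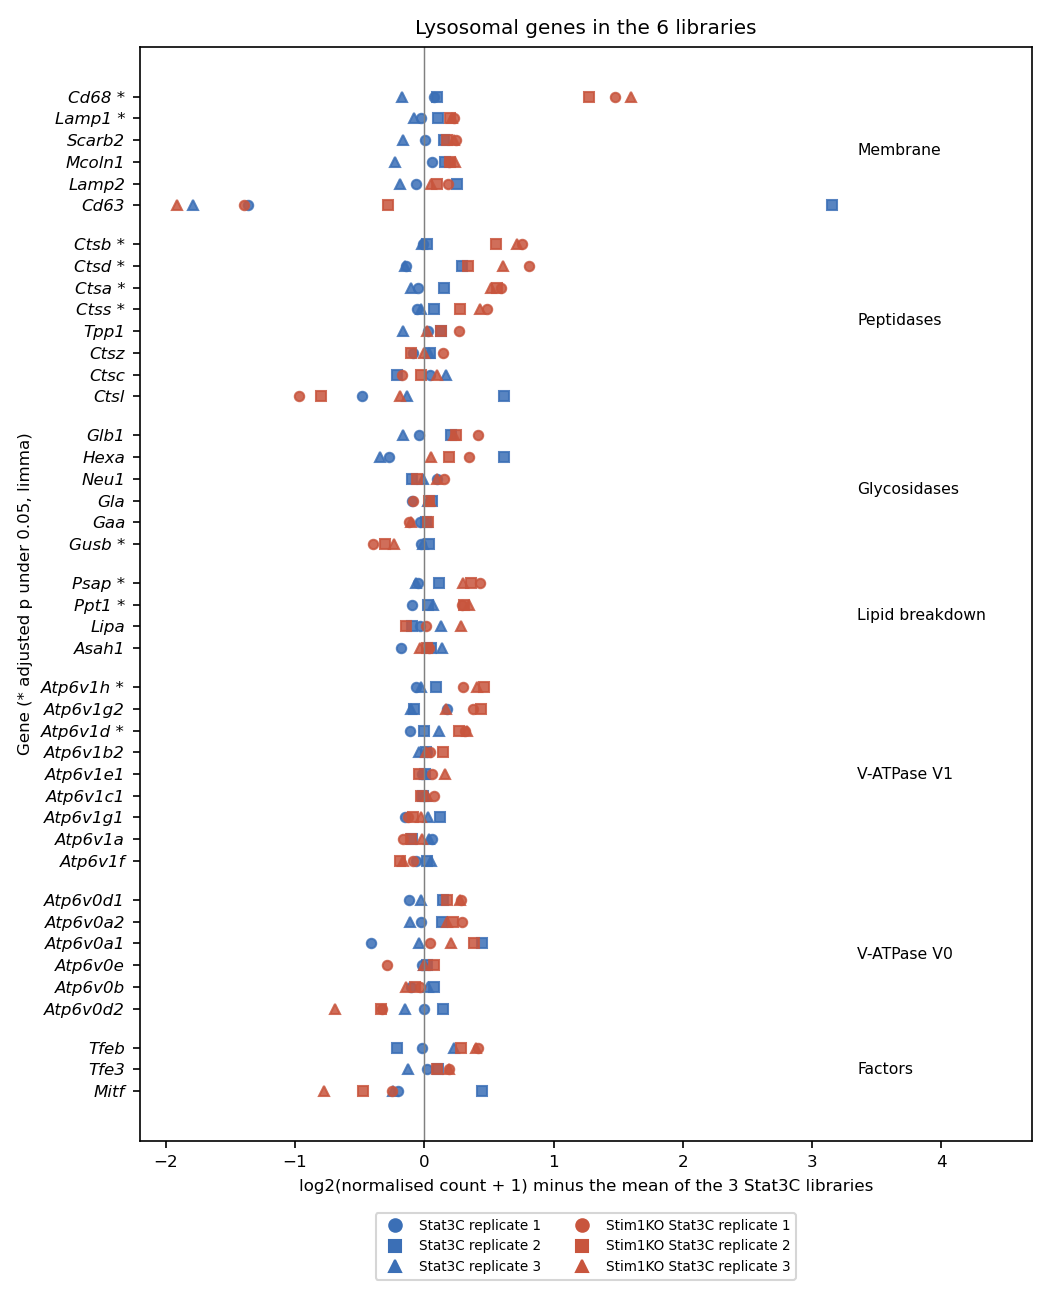
Expression of the 42 tested lysosomal genes in each library, as log2(normalised count + 1) minus the mean of the 3 Stat3C libraries, by role. Blue marks are Stat3C and red marks Stim1KO Stat3C libraries, with shapes for replicates 1 to 3, and an asterisk marks the 11 genes past the threshold. The red marks of Cd68, Ctsb, Ctsd, Ctsa and Ctss sit to the right of the blue ones, most V-ATPase genes lie near 0 in both groups, and Cd63 in Stat3C replicate 2 lies far from the rest.

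The motif CACGTG, bound by the TFEB family and by many other factors of the same type, was looked for in RefSeq promoters (GRCm38.p6, 250 bases before to 50 after each gene start). It reads the same on both strands. Of the 42 genes, 34 matched a promoter by symbol, and 12 of these (35.3%) held it, against 12.05% of the 8938 tested genes with a promoter. Those 12 were Atp6v0b, Atp6v0d1, Atp6v0e, Atp6v1a, Ctsa, Ctsd, Ctsl, Gaa, Gla, Glb1, Lamp1 and Mcoln1. Among the 11 genes that rose or fell, 9 had a promoter and 3 (33.3%) held the motif, a share close to the 35.3% of the whole set. The other holders, Mcoln1 among them, did not pass the test. The longer TCACGTGA, which contains CACGTG, stood in 7 of 34 (20.6%), against 2.32% of tested genes with a promoter. TCACGTGA with a G before and a C after it stood in 0 of 34, against 0.884%. These matches describe the letters in a window and not binding. The stretches below show the motif, in capitals, in the 3 risen genes that hold it and in Mcoln1, the calcium channel gene of the lysosome, whose libraries did not overlap.
Ctsa, chr2:164833757-164833786, plus strand: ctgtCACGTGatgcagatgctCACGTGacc
Ctsd, chr7:142387908-142387937, minus strand: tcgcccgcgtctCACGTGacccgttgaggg
Lamp1, chr8:13159127-13159156, plus strand: gactggCACGTGaccacatCACGTGcggaa
Mcoln1, chr8:3500462-3500491, plus strand: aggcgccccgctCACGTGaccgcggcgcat
Counted from the RefSeq start of the gene as 0, which for Ctsa and Ctsd lies inside the GENCODE gene span given further on, the motifs begin at -12 and 5 in Ctsa, at -98 in Ctsd, at -28 and -15 in Lamp1 and at -45 in Mcoln1. The whole promoter of Lamp1 held 4 such motifs, and those of Ctsa, Ctsd and Mcoln1 held 2 each.

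Of the 6 membrane proteins, Cd68 and Lamp1 rose and none fell, beside 8.62% higher and 4.96% lower of all genes tested. The median log2 difference was 0.21. Cd68 (chromosome 11, 69664213 to 69666153, minus strand, GRCm38) encodes macrosialin, a heavily glycosylated protein of late endosomes and lysosomes best known from macrophages. It stood at 137, 139 and 115 normalised counts in Stat3C and at 364, 317 and 396 in Stim1KO Stat3C, so that every library without Stim1 stood far above the highest Stat3C value. Its mean went from 130.5 ± 13.2 (SD, n = 3) to 359 ± 39.9, a ratio of 2.75 and the largest rise among the 42 genes (log2 difference 1.45, SE 0.14, limma adjusted p = 0.00147). The macrophage genes Csf1r, Fcgr1, Emr1, C1qa, C1qb and C1qc were at 0 in all 3 Stim1KO Stat3C libraries, and Lyz2 stood at 0, 2.15 and 0 there.

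Lamp1 (chromosome 8, 13159161 to 13175338, plus strand) encodes a main glycoprotein of the lysosomal membrane. It read 3450, 3783 and 3340 against 4136, 4048 and 4081, a narrow but complete separation. The log2 difference was 0.22 (SE 0.06, limma adjusted p = 0.0464), and the edgeR adjusted p on recovered reads was 0.063. The other 4 membrane genes did not pass. Scarb2, which encodes the membrane protein LIMP-2, read 1012, 1123 and 900.2 against 1193, 1138 and 1179 (log2 difference 0.22, adjusted p = 0.14). Mcoln1, which encodes the calcium channel TRPML1, read 376, 404 and 309 against 412, 415 and 425 (log2 difference 0.21, adjusted p = 0.255). Both had no overlap between groups, and Scarb2 passed without Stat3C replicate 2 (limma adjusted p = 0.0247), beside 14.3% of all genes called higher. Lamp2, the second main membrane glycoprotein, overlapped between groups (log2 difference 0.11).

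Cd63, a tetraspanin of lysosomes and of the secretory granules of mast cells and basophils, was set by a single library. It read 23.8, 566 and 17.4 with Stim1 against 23.3, 51.5 and 15.9 without it. The log2 difference was -1.20 with a 95% interval from -3.93 to 1.53, and 0.38 without Stat3C replicate 2. In both groups the highest value came from the library with the most RNA of the basophil protease Mcpt8, which read 24.2, 790 and 12.6 with Stim1 against 54.8, 177 and 31.8 without it. The part of such cells in the values was not tested. In Stat3C replicate 2, 5 of the 42 genes (Cd63, Hexa, Ctsl, Mitf and Atp6v0a1) stood more than 1.5-fold above the mean of the other Stat3C libraries. That is 11.9%, against 9.80% of all genes tested. None of these 5 had passed the test.

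**Figure D2:**
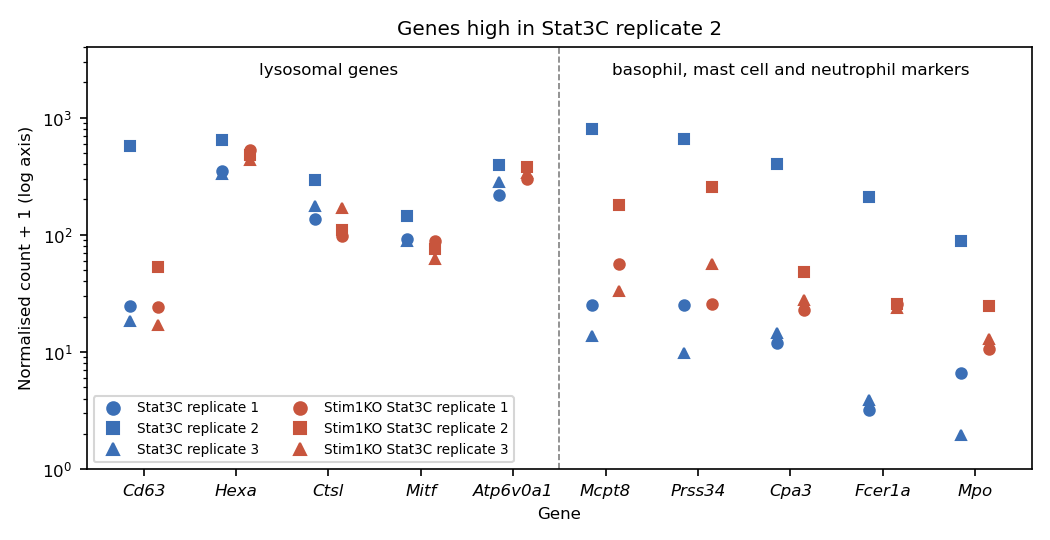
Normalised counts + 1 (log axis) in the 6 libraries for the lysosomal genes that stood high in Stat3C replicate 2, beside marker genes of granulocytes, basophils and mast cells. Blue marks are Stat3C and red marks Stim1KO Stat3C libraries. Cd63 and Mcpt8 are highest in Stat3C replicate 2, at 566 and 790 normalised counts, and both are second highest in Stim1KO Stat3C replicate 2.

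The peptidases gave the most calls: of 8 tested genes, Ctsb, Ctsd, Ctsa and Ctss rose and none fell. Of all genes tested, 8.62% were higher and 4.96% lower. The median log2 difference of the peptidases was 0.27. Ctsb (chromosome 14, 63122462 to 63145923, plus strand), a cysteine protease, was among the most abundant of the 42 genes. It read 4490, 4580 and 4464 with Stim1 against 7601, 6638 and 7437 without it. The Stat3C libraries lay close together, and the lowest library without Stim1 was far above them. The means were 4511 ± 60.7 and 7225 ± 515 (SD, n = 3), a rise of 60.2% (log2 difference 0.68, SE 0.06, limma adjusted p = 0.0013). Its exons share 774 bases with Fdft1, a sterol synthesis gene on the opposite strand, which read 2311, 1985 and 2459 against 1728, 1878 and 1885 and so lay lower without Stim1, short of the threshold (limma adjusted p = 0.0584).

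Ctsa (chromosome 2, 164832873 to 164841032, plus strand) encodes a serine carboxypeptidase that also protects beta-galactosidase and neuraminidase in a complex. It read 2128, 2458 and 2051 against 3329, 3256 and 3155, with a wide gap between the groups (1.47-fold, log2 difference 0.56, SE 0.07, limma adjusted p = 0.00373). Ctss (chromosome 3, 95526786 to 95556403, plus strand), a cysteine protease known for trimming the invariant chain of MHC class II, read 1069, 1168 and 1092 against 1557, 1342 and 1494 (1.32-fold, log2 difference 0.40, SE 0.08, limma adjusted p = 0.0137). Its groups did not overlap. B cells also make this protease, and the sum of their markers was lower in every library without Stim1; their part in the result was not tested. Ctsd (chromosome 7, 142375911 to 142388038, minus strand), the main aspartic protease, had the widest spread of the called genes. It read 3788, 5126 and 3767 against 7327, 5282 and 6371, so that Stat3C replicate 2 came close to Stim1KO Stat3C replicate 2. Its means were 4227 ± 779 and 6327 ± 1023 (log2 difference 0.58, SE 0.15, limma adjusted p = 0.0372, edgeR adjusted p = 0.0509). Ctsd shares 670 exon bases with the annotated gene Gm49369 on the same strand, which was not analysed here.

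Of the other peptidases, Ctsc, which activates granzymes, Ctsz, a carboxypeptidase, and Tpp1, a tripeptidyl peptidase, overlapped between the groups, with log2 differences of -0.03, 0.01 and 0.14. Ctsl, a cysteine endopeptidase, read 136, 293 and 173 against 97.2, 110 and 167 (log2 difference -0.65, adjusted p = 0.192), and was again highest in Stat3C replicate 2. Ctsh, an aminopeptidase, lay below the filter at 3.98 to 9.57 normalised counts. Ctsb, Ctsa and Cd68 passed the threshold under all 22 other settings tried, which was true of 3 of the 11 called genes.

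The glycosidases gave 1 call, a decrease. Of 6 tested genes, 0 rose and Gusb fell, beside 8.62% higher and 4.96% lower of all genes tested. Their median log2 difference was 0.03. At an unadjusted limma p under 0.05, 1 was higher and 1 lower, and edgeR and DESeq2 called 0 higher and 1 lower. Gusb (chromosome 5, 129989011 to 130003049, minus strand) encodes beta-glucuronidase. It read 3028, 3153 and 3049 with Stim1 against 2334, 2493 and 2611 without it, a complete separation. Its mean fell from 3077 ± 67.1 to 2479 ± 139 (SD, n = 3), a log2 difference of -0.31 (SE 0.06, limma adjusted p = 0.0127). Glb1, beta-galactosidase, read 638, 756 and 584 against 874, 776 and 767, without overlap but with an adjusted p of 0.112. Hexa, the alpha subunit of hexosaminidase, read 346, 643 and 330 against 533, 480 and 435. Its only high Stat3C value came from replicate 2. Without that library Hexa (log2 difference 0.51, limma adjusted p = 0.0128) and Glb1 (0.40, adjusted p = 0.0144) both passed, beside 14.3% of all genes called higher. Gaa, Gla and Neu1, which break down glycogen, alpha-galactosides and sialic acid links, had log2 differences of -0.06, -0.00 and 0.06 with overlapping groups.

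Of the 4 genes of lipid breakdown, Psap and Ppt1 rose and none fell, beside 8.62% higher and 4.96% lower of all genes tested. Psap (chromosome 10, 60277627 to 60302597, plus strand) encodes the precursor of the saposins, which present sphingolipids to their hydrolases. It read 4676, 5235 and 4638 against 6528, 6215 and 5958, 1.29-fold higher on average (log2 difference 0.36, SE 0.06, limma adjusted p = 0.0107). Ppt1 (chromosome 4, 122836242 to 122859175, plus strand), a thioesterase that removes palmitate from proteins, read 963, 1051 and 1077 against 1259, 1276 and 1306 (log2 difference 0.31, SE 0.07, limma adjusted p = 0.0202). Both were above all Stat3C libraries in every library without Stim1. Ppt1 shares 32 exon bases with Cap1 on the opposite strand, which itself rose (log2 difference 0.43, adjusted p = 0.00304). Asah1, acid ceramidase, and Lipa, the acid lipase of cholesteryl esters, overlapped between groups, with log2 differences of 0.01 and 0.05.

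**Figure D3:**
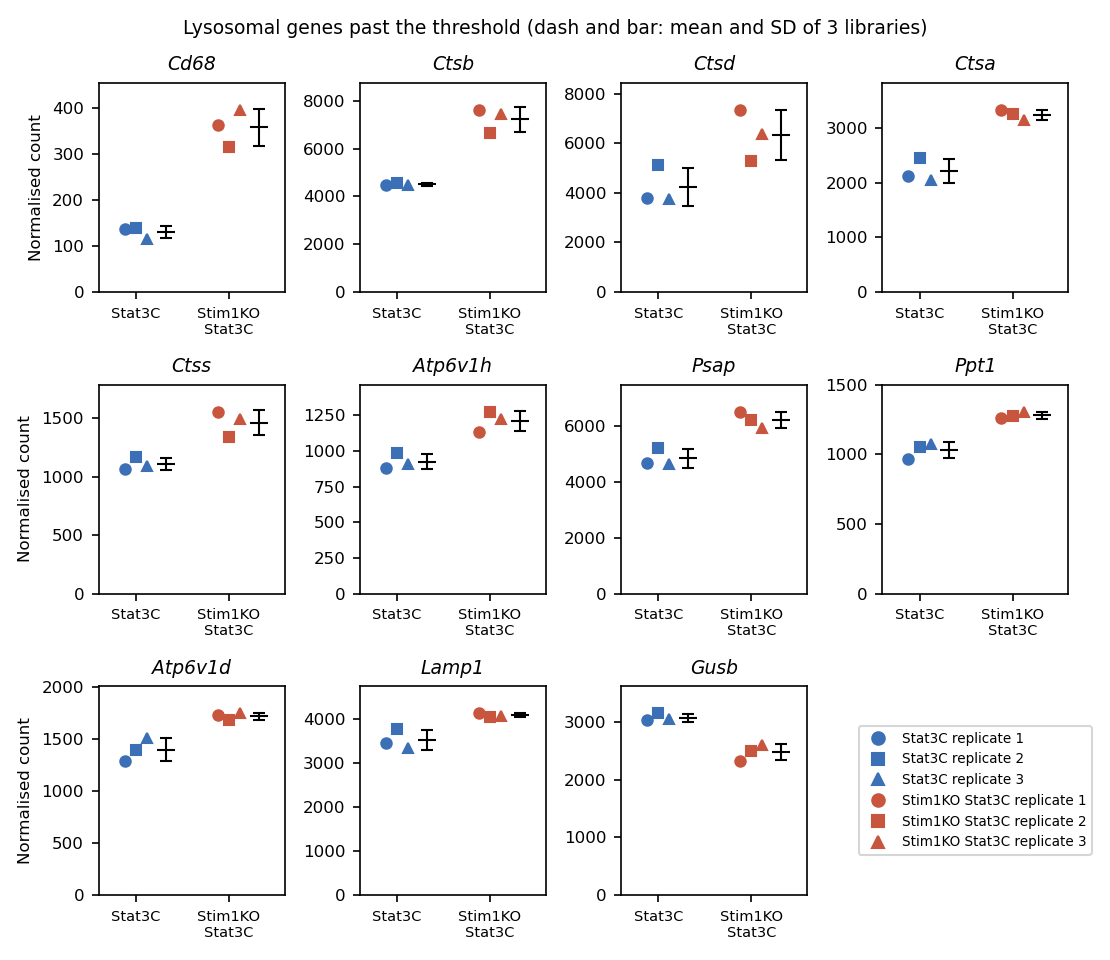
Normalised counts of the 11 lysosomal genes past the threshold, each panel with its own axis from 0, for 3 Stat3C (blue) and 3 Stim1KO Stat3C (red) libraries. Dashes and bars give the mean and SD. In 10 panels every red mark lies above every blue mark, with the widest gap for Cd68, and in the panel of Gusb every red mark lies below.

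Among the V-ATPase genes, Atp6v1h and Atp6v1d rose and the other 13 of 15 tested did not pass, with a median log2 difference of 0.06. Of all genes tested, 8.62% were higher and 4.96% lower. In the V1 sector 2 of 9 rose and none fell. Atp6v1h (chromosome 1, 5070018 to 5162529, plus strand), the H subunit, which is needed for activity of the assembled pump, read 882, 984 and 905 against 1135, 1275 and 1227 (log2 difference 0.39, SE 0.07, limma adjusted p = 0.014). Atp6v1d (chromosome 12, 78840725 to 78861638, minus strand), the D subunit of the central stalk, read 1285, 1390 and 1505 against 1727, 1677 and 1744 (log2 difference 0.30, SE 0.07, limma adjusted p = 0.028). Neither overlapped between groups, and the means were 1.31-fold and 1.23-fold higher. The catalytic subunit gene Atp6v1a, the most counted of the sector, read 3503, 3150 and 3453 against 2996, 3136 and 3326 (log2 difference -0.10, 95% interval -0.24 to 0.05). Atp6v1b2, the other subunit of the ATP-splitting head, read 2225, 2217 and 2131 against 2265, 2423 and 2217 (0.07). The stalk subunit genes Atp6v1c1, Atp6v1e1 and Atp6v1g1 had log2 differences of 0.03, 0.06 and -0.08 with overlapping groups. Atp6v1f, also of the central stalk, read 2007, 2129 and 2175 against 1976, 1851 and 1877, lower without overlap but not past the test (-0.15, adjusted p = 0.136). Atp6v1g2, a G isoform known from neurons, was low, at 26.2 to 38.7 normalised counts (0.33, adjusted p = 0.44).

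In the V0 sector 0 of 6 genes passed limma's test in either direction. At an unadjusted p under 0.05, 2 were higher and 1 lower, and edgeR and DESeq2 each called 0. Limma without Stat3C replicate 2 called Atp6v0a2 and Atp6v0d1 higher, beside 14.3% of all genes higher and 9.98% lower. Atp6v0e, the most counted, read 1626, 1671 and 1642 against 1352, 1735 and 1641 (log2 difference -0.07). Atp6v0d1, which joins the stalk to the membrane ring, read 1203, 1439 and 1277 against 1589, 1475 and 1582 (0.25, adjusted p = 0.0743). Atp6v0a2, a proton channel subunit best known from the Golgi, read 923, 1032 and 869 against 1152, 1093 and 1061 (0.23, adjusted p = 0.0996). Both were higher without overlap. Atp6v0d2, a d isoform known from osteoclasts, read 128, 141 and 115 against 101, 101 and 78.6, lower without overlap (-0.45, adjusted p = 0.124). Atp6v0a1 and Atp6v0b overlapped between groups, at 0.21 and -0.08.

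Divided by the exon length in GENCODE, which allows levels to be set side by side, Atp6v1f stood highest of the V1 genes at 1742 to 2046 normalised counts per kilobase over the 6 libraries. Atp6v1e1 followed at 1184 to 1357 and Atp6v1g1 at 885 to 1069. Atp6v1a (705 to 825), Atp6v1b2 (754 to 858) and Atp6v1c1 (703 to 754) overlapped in range, above Atp6v1h (405 to 586) and Atp6v1d (351 to 476), which overlapped too. Where a subunit has several genes, 1 of them held most of the level per kilobase in each library. Of the d subunit, 93.6% to 96.9% came from Atp6v0d1, of G 97.5% to 98.6% from Atp6v1g1, and of B, C, E and e at least 98.86% from Atp6v1b2, Atp6v1c1, Atp6v1e1 and Atp6v0e. The a subunit was mixed: Tcirg1, its a3 isoform of osteoclasts and T cells and no Atp6v symbol, held 58.9% to 63.4%, Atp6v0a2 25.6% to 28.7% and Atp6v0a1 8.92% to 13.8%. The isoforms that fell below the filter, Atp6v0a4, Atp6v0e2, Atp6v1b1, Atp6v1c2, Atp6v1e2 and Atp6v1g3, read 9.66 normalised counts at most. Atp6v0c, the proton-carrying ring subunit, was listed at 0, 1.51 and 2.91 against 0, 0 and 0. Its copy Atp6v0c-ps2, listed at 0 in every library, matches it at 99.785% over 465 bases. Atp6v0c has 1258 exon bases in all. Reads that match both can be lost, so its true level is uncertain, but the cause of its low values was not tested. Atp6v1g1 and Atp6v1f also have close copies (99.44% over 357 bases and 97.5% over 360 bases).

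**Figure D4:**
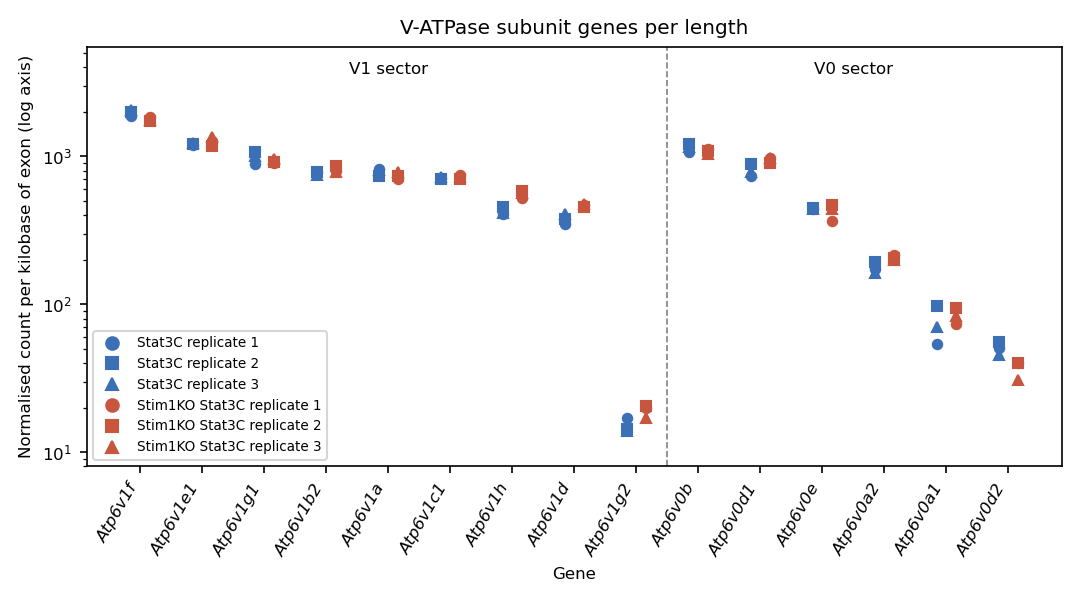
Normalised counts per kilobase of exon (log axis) for the V-ATPase subunit genes with Atp6v symbols in 3 Stat3C (blue) and 3 Stim1KO Stat3C (red) libraries. Within a gene the marks of both groups lie close together, while genes of 1 sector range from at most 20.7 per kilobase for Atp6v1g2 to at least 1742 for Atp6v1f.

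Of the 3 factor genes, none passed limma's test. At an unadjusted p under 0.05, 1 was higher and 0 lower, and edgeR and DESeq2 called 0. Tfeb read 210, 183 and 249 with Stim1 against 283, 259 and 281 without it, a complete separation (log2 difference 0.37, 95% interval 0.05 to 0.68, adjusted p = 0.114). Tfe3 read 939, 992 and 844 against 1056, 988 and 1057, with Stat3C replicate 2 inside the range of the other group (0.16, adjusted p = 0.203). Mitf was low and had a negative difference, at 90.5, 143 and 88.2 against 87.6, 75.2 and 60.7, just short of overlap (-0.50, adjusted p = 0.21). These are RNA levels, whereas these factors are mainly controlled by where the protein is in the cell, which RNA does not show.

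Replicate 3 of each group also differed from the rest in Xist, which was at 8362 and 11549 normalised counts there and at 3.53 or less in the other 4 libraries. The Y chromosome gene Ddx3y split the libraries in the same way, at 1362, 1227 and 0 in Stat3C against 1008, 1295 and 0.995. Within the high Xist class (1 library per group) the log2 differences of the 10 risen genes ran from 0.21 to 1.77. Within the low Xist class (2 per group) they ran from 0.18 to 1.29. Those of Gusb were -0.22 and -0.36. Their signs were fixed by the lack of overlap between groups, so that only the sizes are of use. With the class as a term in the fit, all 11 genes were called. That fit also called more of all genes, 9.55% higher and 5.65% lower, against 8.62% and 4.96% without the term.

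Related genes outside the 42 were followed in 8 lists of other lysosomal proteins and of the paths that serve them. Together 192 were tested, of which 20 (10.4%) were higher and 3 (1.56%) lower, beside 8.62% and 4.96% of all genes tested, so that the share called higher was near the background. Their median log2 difference was 0.08, against -0.00 for all genes. Of 40 other hydrolases and their activators, 6 (15%) rose, among them Gm2a, Acp5, Sgsh and Ggh, and 1 fell (Npc2), with a median of 0.22. Gm2a, the activator of ganglioside breakdown, read 1516, 1358 and 1546 against 2102, 1788 and 1935 (log2 difference 0.40, limma adjusted p = 0.0174). Npc2, a soluble cholesterol carrier and the most counted of these, read 9492, 9985 and 8776 against 7021, 8017 and 6410 (-0.40, adjusted p = 0.0219). Npc1, the membrane protein that takes cholesterol from it, rose, at 752, 965 and 756 against 1157, 1224 and 1148 (0.52, adjusted p = 0.0161).

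Of 32 other membrane proteins 4 (12.5%) rose and 0 fell, beside 8.62% and 4.96% of all genes tested, with a median of 0.18. At an unadjusted p under 0.05, 2 were lower, and edgeR called 0 and DESeq2 1 lower. Limma without Stat3C replicate 2 called 11 higher and 2 lower, beside 14.3% and 9.98% of all genes. Beside Npc1 the risen genes were Laptm5, Pqlc2 and Ostm1. Laptm5, a lysosomal protein of blood cells that lowers antigen receptor levels, read 15328, 16592 and 15205 against 23931, 21896 and 22415 (0.53, limma adjusted p = 0.00165). Pqlc2, an exporter of basic amino acids, had a difference of 0.64, and Ostm1, the partner of the ClC-7 chloride exchanger, 0.50. Of 13 V-ATPase subunits without Atp6v symbols, accessory proteins and assembly factors, 0 rose and Tmem199, an assembly factor, fell (-0.37, adjusted p = 0.0311). At an unadjusted p under 0.05, 3 of them were higher, and edgeR called 0 and DESeq2 1 higher. Limma without Stat3C replicate 2 called 2 of the 13 higher, beside 14.3% of all genes.

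Delivery to the lysosome gave 4 of 31 genes (12.9%) higher and 0 lower, beside 8.62% and 4.96% of all genes tested, and a median of 0.03. At an unadjusted p under 0.05, 1 was lower, and edgeR and DESeq2 each called 1 lower. Gnptab, which encodes the catalytic part of the transferase that starts the mannose 6-phosphate tag of lysosomal enzymes, read 2363, 2531 and 2325 against 4415, 3783 and 4167. Its mean went from 2406 ± 110 to 4122 ± 318 (1.71-fold, log2 difference 0.77, limma adjusted p = 0.0013), and the groups were far apart. Gnptg, the gamma subunit of that transferase, rose by 0.31, and Igf2r, a receptor for the tag, by 0.48 (4508, 4905 and 4351 against 6552, 5855 and 6774). Plekhm1, an adaptor of lysosome fusion, rose by 0.32. Of 32 genes of the mTORC1 and TFEB control at the lysosome, 1 (3.12%) rose, Sesn3 (0.46, adjusted p = 0.00423), and 1 fell, Gatsl3 (-0.62, adjusted p = 0.021), with a median of -0.02. These encode a sestrin and the arginine sensor also called Castor1. Of 4 calcineurin genes limma, edgeR and DESeq2 called 0 with all 6 libraries, and 0 had an unadjusted p under 0.05. Without Stat3C replicate 2, limma called 1 of the 4 higher, beside 14.3% of all genes. Ppp3r1 read 3160, 2991 and 3320 against 2854, 3012 and 3180, and Ppp3cb 1304, 1425 and 1292 against 1294, 1487 and 1480, both with overlap.

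**Figure D5:**
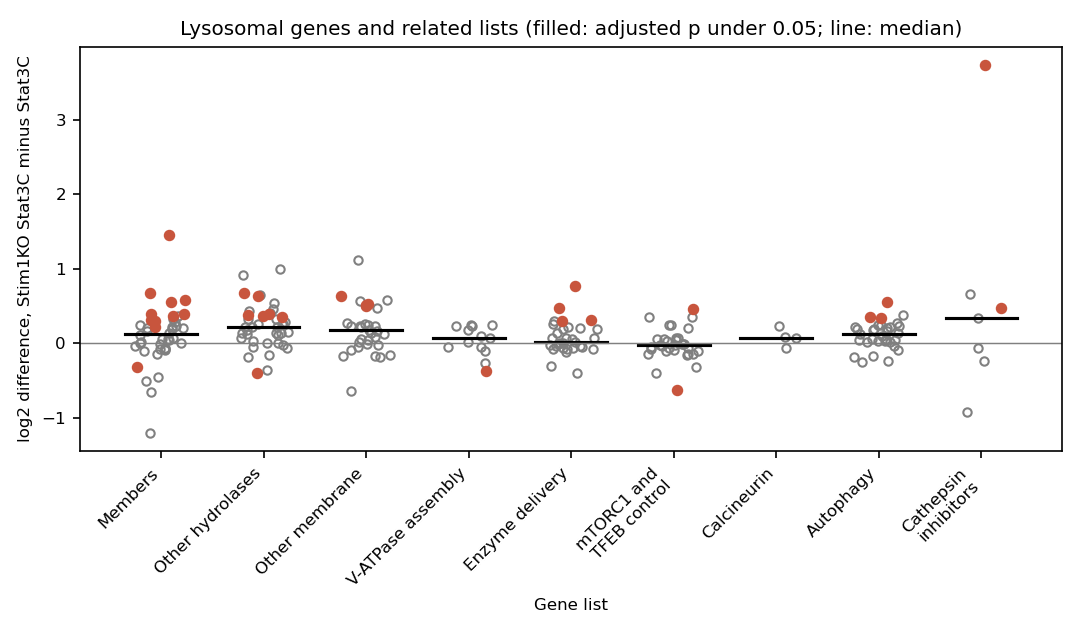
Log2 differences (Stim1KO Stat3C minus Stat3C) of every tested gene in the lysosomal set and in the related lists. Each mark is a gene, filled where limma's adjusted p was under 0.05, and lines give the medians. The medians lie between -0.02 for mTORC1 and TFEB control and 0.35 for the inhibitors of cathepsins, a list of 7 tested genes.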

How the data were processed

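Libraries of poly(A) RNA (100 ng input, stranded kit, per the labels' protocols) were made from 6 samples. Tools listed in the submitters' processing notes are HTSeq 0.11.1, TopHat2 2.1.1 and DESeq2 1.22.2, with build mm10. For gene models and counting settings, strand included, the sources used here give nothing. The authors' deposited signal appears to be counts scaled by library, since in every column 100% of values were whole multiples, within 0.01, of 1 step. Of 23420 rows, 27 with names turned into dates (at most 0.217% of a library) stayed out. The main test was limma 3.58.1 (R 4.3.3) (two-sided, with a variance trend), run on log2(value + 1) for genes with a mean of at least 10, Benjamini-Hochberg adjusted. Count models (edgeR 4.0.16, DESeq2 1.42.0, voom) were run only on the recovered reads, as alternatives. Every pair of libraries differed beyond sampling noise (chi-square per degree of freedom of at least 8.70). Replicates were numbered in accession order. Exon lengths and overlaps came from GENCODE mouse release M21 (GRCm38). The steps were tested on simulated data.

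The genes and lists were chosen with earlier results of these data known. By rule, genes past the threshold are given in full, with the most counted gene of each role, Tfeb, Tfe3, Mitf and Mcoln1. Up to 4 genes past the threshold are named per related list, or 2 by mean where none passed. Acp5, Sgsh, Ggh, marker genes, neighbouring genes, Tcirg1 and the further members given by library were added after their values were seen. Some genes that this rule names are not reported here.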

Additional observations from a re-analysis of the deposited data

How the results depend on the processing

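The number of lysosomal genes called higher was 10, and 3 to 15 when 1 library was left out. It was 5 in limma without a variance trend, beside 5.05% of all genes called higher. In edgeR without Stim1KO Stat3C replicate 3, the library whose step near 1 cannot be told from rounding, it was 4, beside 5.35%. The number lower was 1, and 0 to 1 with 1 library left out. It was 0 without Stat3C replicate 1 or 3, beside 1.17% and 1.29% of all genes, and 0 without a variance trend, beside 1.87%. The related lists had 23 calls, 7 to 50 with 1 library left out (7, 50 and 8 without Stat3C replicate 1, 2 and 3, and 8, 10 and 12 without Stim1KO Stat3C replicate 1, 2 and 3), 8 without a trend, 36 in DESeq2 and 9 in edgeR without that library. The share of all genes called moved with the setting too. With 1 library left out it ran from 3.99% higher and 1.17% lower (Stat3C replicate 1) to 14.3% and 9.98% (Stat3C replicate 2). In DESeq2 it was 10.6% higher and 8.51% lower. Leaving out a library leaves fewer samples, and for the other settings the cause was not tested. The Xist term and edgeR without that library were chosen after seeing the data.

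Over 22 settings, Lamp1 lost its call in 14, Ctsd in 9, Atp6v1d and Ppt1 in 6, Atp6v1h and Ctss in 4, Gusb in 3 and Psap in 2. Of the 31 others, 26 were called in none. Signs changed only for 9 genes near 0 or set by 1 library. Asah1 was -0.0091 under upper-quartile scaling, -0.0010 in edgeR, -0.0050 in DESeq2 and -0.016 after thinning to equal depth. Atp6v1e1 was -0.00019 and Lipa -0.075 in edgeR without Stim1KO Stat3C replicate 3, Ctsz -0.0057 under upper-quartile scaling, and Gla 0.0073 in voom and 0.034 after thinning. With 1 library left out, the same genes ranged as follows: Asah1 from -0.082 to 0.076, Atp6v0e from -0.14 to 0.036, Atp6v1c1 from -0.0016 to 0.049, Cd63 from -2.09 to 0.38, Ctsc from -0.14 to 0.050, Ctsz from -0.052 to 0.069, Gla from -0.048 to 0.040 and Lipa from -0.064 to 0.15. No paired analysis was possible because the labels give no replicate numbers that the groups share. A depth of 16009755 reads in the shallowest library limits genes near the floor, such as the minor V-ATPase isoforms.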

Other observations

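Of 33 autophagy genes 3 (9.09%) rose and none fell, beside 8.62% and 4.96% of all genes tested, a share higher that is near the background. A positive log2 difference was seen in 27, and the median was 0.13. At an unadjusted limma p under 0.05, 11 were higher and 0 lower, but the share of all genes at that cutoff was not counted. On recovered reads, edgeR called 2 (6.06%, beside 7.91% of all genes) higher and DESeq2 5 (15.2%, beside 10.6%), with 0 lower in each. Limma without Stat3C replicate 2 called 6 higher and 1 lower, beside 14.3% and 9.98% of all genes. Tax1bp1, an autophagy receptor, read 3486, 4350 and 3658 normalised counts in Stat3C against 6063, 5458 and 5395 (log2 difference 0.56, limma adjusted p = 0.00695). Sqstm1, the receptor p62, read 2722, 3132 and 2726 against 3903, 3479 and 3446 (0.34, adjusted p = 0.0268). Gabarap, which is joined to autophagosome membranes, read 1915, 2319 and 1921 against 2888, 2480 and 2485 (0.35, limma adjusted p = 0.0454, edgeR 0.0583).

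Of 7 tested inhibitors of cathepsins, Cst7 and Stfa2 rose (28.6%) and none fell, beside 8.62% and 4.96% of all genes tested. A positive log2 difference was seen in 4. At an unadjusted p under 0.05, 3 were higher and 0 lower. Of the count models, edgeR called 1 higher (14.3%, beside 7.91% of all genes) and DESeq2 2 (28.6%, beside 10.6%). Cst7, cystatin F, an inhibitor kept inside cells of the immune system, read 2197, 2315 and 1906 against 3000, 2797 and 3114 (0.48, adjusted p = 0.00965). Stfa2, a stefin, read 6.49, 52.4 and 2.91 against 126, 185 and 153 (3.73, limma adjusted p = 0.0251, edgeR 0.0743). Stefin A genes are close copies of each other, so the counts of this gene are uncertain.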
